A study of Mus musculus with 6 samples.

Results

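Small RNA libraries of thymic regulatory T (Treg) cells hold, beside microRNAs and other short RNAs, fragments of the messenger RNAs of the cell. The genes described here encode the T cell receptor (TCR) complex and its first signalling steps, namely Trac, Trbc1, Trbc2, Cd3e, Cd3d, Cd3g, Cd247, Cd4, Lck and Zap70. They were chosen by name and looked up in the per-sample count files by Ensembl identifier through the symbols of GENCODE vM21, and all 10 were found among 54547 gene identifiers, of which 16588 had at least 1 count. The study compared 3 wild type (WT) samples with 3 samples of genotype miR-181a1/b1 -/- (miR-181a/b-1-/-, KO), which lack the microRNAs miR-181a-1 and miR-181b-1 encoded in 1 cluster. All 6 samples carry the strain label C5BL6/N and were Treg cells sorted from the thymus of mice aged 7 weeks, with 3 thymi pooled per sample according to the methods. The results text of the study instead calls the cells of this experiment peripheral, and the thymus is taken here from the labels and the methods. Neither the labels nor the methods name a Cre driver for the deletion.

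The TCR of most T cells is a pair of alpha and beta chains that bind peptide presented on MHC molecules. Each chain joins a variable region, assembled from gene segments in the developing thymocyte, to a constant region encoded by Trac or by one of the paralogs Trbc1 and Trbc2. The receptor has almost no cytoplasmic tail and signals through the CD3 gamma, delta and epsilon chains and the zeta chain, whose cytoplasmic motifs are phosphorylated by the Src family kinase Lck and then bound by the kinase Zap70. CD4, the coreceptor for MHC class II, brings Lck to the engaged receptor. Strong TCR signals accompany the development of Treg cells in the thymus, and miR-181a is known to tune these signals in thymocytes, which is the background of the comparison of genotypes.

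Counts on genes totalled 168293 to 307840 per library, with the smallest and the largest total both in the KO group, and 75.7% to 80.3% of the records of a library were assigned to no gene. The KO replicate 3 library had the largest total and the lowest normalization factor (0.876). Counts on Mir181b-1 were 0 in all 6 libraries and Mir181a-1 had 1 count, in WT replicate 2, so that the counts on the targeted genes could not check the genotype labels. Of the Treg marker genes, 11 of 11 had counts, and Foxp3, the transcription factor that defines the lineage, lay between 95.8 and 160.0 CPM (counts scaled to a common library size and TMM-normalized). Markers of other cell types were sparse. The 10 markers of double-positive thymocytes together had 3 to 6 counts per library in WT and 6 to 10 in KO, with 7 of the 10 counted and Ptcra and Rag2 among those at 0. Cd8b1, a chain of the CD8 coreceptor, was the most counted, with 0, 3 and 1 counts in WT and 2, 2 and 2 in KO, followed by Arpp21 with 9 and Cd1d1 with 5 counts in all. The summed level of these markers was 14.9 to 30.5 CPM in WT and 36.2 to 45.1 CPM in KO, so that all KO libraries lay above all WT libraries. Erythroid markers had 0 counts in all libraries, myeloid markers had 4 counts, all in KO replicate 2, thymic epithelial markers had 2, gamma delta T cell markers had 8, all on Trdc, CD8 T cell markers had 56, and B cell markers had 68. Of the 9 B cell markers 5 had counts, with 49 on Ighm, 11 on Cd74 and 6 on Cd79b, while Cd79a, H2-Aa and Ms4a1 were among those at 0, and the summed level was 45.1 to 79.7 CPM in WT and 41.0 to 72.4 CPM in KO. The part of other cells in the values below was not tested.

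The 10 genes took 1047 counts in WT and 894 in KO, or 0.152% ± 0.0130 and 0.137% ± 0.0171 (SD, n = 3) of the counts on genes. In WT replicates 1, 2 and 3 the share was 0.167%, 0.142% and 0.147%, and in the KO replicates it was 0.148%, 0.146% and 0.117%. The groups overlapped, with the lowest share in KO replicate 3, whose 95% Wilson interval was 0.106% to 0.130%. Relative to the counts on protein-coding genes the share was 0.682%, 0.598% and 0.620% in the WT replicates and 0.553%, 0.595% and 0.555% in the KO replicates. On this scale all KO libraries lay below all WT libraries, although WT replicate 2 and KO replicate 2 were nearly equal. Relative to all records the share was 0.0399%, 0.0314% and 0.0357% against 0.0360%, 0.0316% and 0.0231%, and the groups overlapped. The sum was not tested on any of these scales, since its genes were chosen. Every gene had counts in every library, from 2 for Zap70 in KO replicate 1 to 73 for Trbc2 in WT replicate 1. Intervals of this kind cover counting error only, since the reads were amplified by PCR and carry no molecular identifiers in the deposited counts. In these bulk samples, fewer cells of a type and less RNA per cell cannot be told apart.

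Levels below are in the same unit, and differences are log2 fold changes of KO over WT from edgeR's quasi-likelihood test on all 1391 genes with at least 10 counts in at least 3 libraries, with Benjamini-Hochberg adjustment over these genes. All genes described except Zap70 passed that minimum. None of the 9 passed an adjusted p of 0.05, and neither did any of the 1391 genes tested (0%). At an unadjusted p under 0.05 the test gave 0 of the 9 genes, while 72 of all genes tested (5.18%) were below it, 37 lower and 35 higher in KO. The adjusted p was 0.980 for each of the 9 genes apart from Cd3e, for which it was 0.983. Of the 9 log2 fold changes, 7 were negative, against 705 of 1391 (50.7%) over all genes, and their median was -0.18 against -0.0040 over all genes. P-values measure only the spread between these samples, which the methods call biological replicates.

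**Figure D1:**
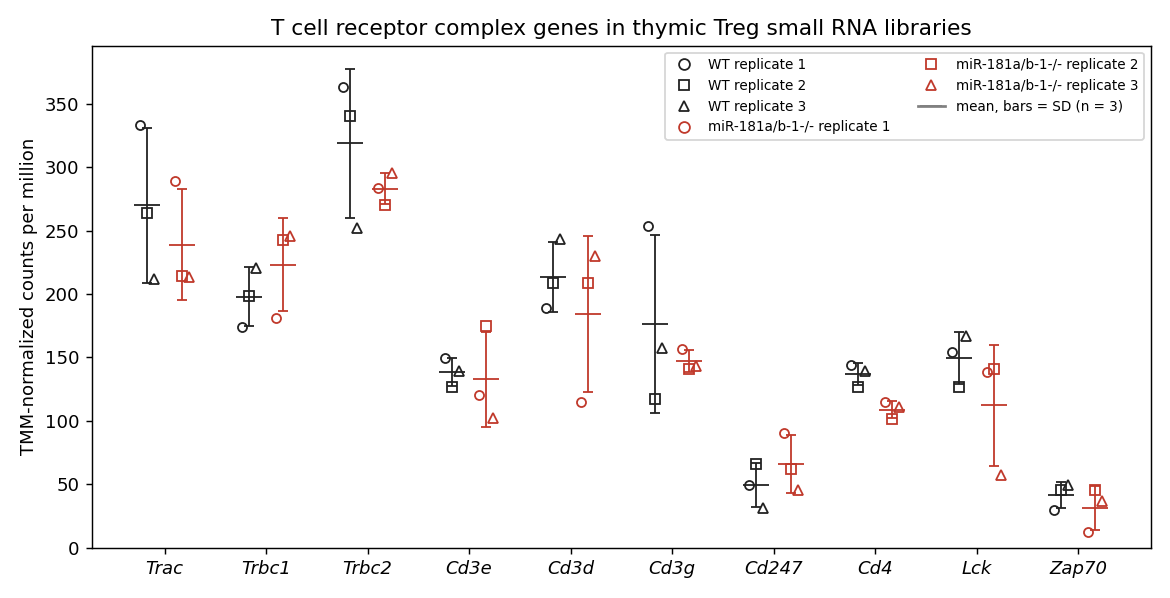
Normalized level (TMM-normalized CPM, vertical axis) of the 10 genes in each of the 6 libraries, with WT in black and miR-181a/b-1-/- in red, a symbol per replicate, and the mean with bars of 1 SD (n = 3). The groups overlap for 9 genes. For Cd4 the 3 KO libraries, at 101 to 115 CPM, lie under the 3 WT libraries, at 127 to 144 CPM.

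The TCR constant regions carried the largest part of these fragments, with 923 of the 1941 counts on Trac, Trbc1 and Trbc2. Trac, the only constant region of the alpha chain, lies at chr14:54220521-54224206 (GRCm38, plus strand). It had 67, 52 and 47 counts in the WT replicates and 48, 38 and 52 in the KO replicates, which is 334, 264 and 212 CPM against 289, 214 and 213 CPM. Replicate 1 was the highest in both groups, and the KO libraries lay within the WT range. For Trac the means were 269.9 ± 61.1 and 239 ± 43.7 CPM (SD, n = 3), and the log2 fold change was -0.18 (SE 0.28, 95% confidence interval -0.75 to 0.39). With single libraries left out it ran from -0.34 without KO replicate 1 to -0.02 without WT replicate 1.

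The beta chain constant regions are near-identical copies on chromosome 6, Trbc1 at chr6:41538218-41539881 and Trbc2 at chr6:41546730-41548352 (GRCm38, plus strand). A rearranged beta chain uses one or the other, and which of them a short read can be assigned to depends on where it falls. In the GENCODE vM21 transcripts their 518 coding bases were 95.6% identical, with 1 difference in the 375 coding bases of the first exon and 22 in the 143 bases of the later exons. The sequences that carry these differences are printed to show which fragments can tell the genes apart, with every base that differs between them in capitals and positions counted from 1 at the first coding base of the transcript. Coding positions 241 to 300 of the first exon (chr6:41538458-41538517 for Trbc1 and chr6:41546970-41547029 for Trbc2) hold the only difference of that exon, C260A from Trbc1 to Trbc2.
Trbc1 first exon: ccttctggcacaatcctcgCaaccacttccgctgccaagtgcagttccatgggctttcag
Trbc2 first exon: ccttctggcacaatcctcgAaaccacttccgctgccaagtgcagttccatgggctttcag
Coding positions 361 to 518, which run from the end of the first exon through the later exons (within chr6:41538578-41539662 for Trbc1 and chr6:41547090-41548178 for Trbc2, introns left out), hold the other 22.
Trbc1 later exons: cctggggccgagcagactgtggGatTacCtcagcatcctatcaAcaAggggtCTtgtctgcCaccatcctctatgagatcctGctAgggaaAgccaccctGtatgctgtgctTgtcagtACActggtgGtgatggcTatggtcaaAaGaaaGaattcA
Trbc2 later exons: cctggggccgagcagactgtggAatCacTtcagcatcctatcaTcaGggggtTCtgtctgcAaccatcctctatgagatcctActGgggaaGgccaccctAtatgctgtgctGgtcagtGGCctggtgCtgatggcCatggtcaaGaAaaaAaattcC

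Of the stretches of 25 bases in the annotated transcripts, 333 are shared, which is 46.1% of those of Trbc1 and 49.8% of those of Trbc2. For the other 8 genes at most 3.41% of such stretches occur in transcripts of other genes in the same orientation. Reverse complements were not searched, so that overlaps with genes on the opposite strand are not part of this value. A read that aligns equally well to both genes would fall among the 41.7% to 46.2% of records per library that were not uniquely aligned, and how many of these came from the beta constant regions was not tested. The levels of all the genes described count short fragments, and how far they measure whole transcripts was not tested. For Trbc1 and Trbc2 the shared stretches add to this uncertainty.

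Trbc1 had 35, 39 and 49 counts in the WT replicates and 30, 43 and 60 in the KO replicates, or 174, 198 and 221 CPM against 181, 242 and 246 CPM. The groups overlapped, with 2 of the KO libraries above all WT libraries. For Trbc1 the means were 198 ± 23.3 and 223 ± 36.6 CPM (SD, n = 3), and the log2 fold change was 0.18 (SE 0.28, 95% confidence interval -0.39 to 0.75). It ran from 0.07 without WT replicate 1 to 0.29 without KO replicate 1.

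Trbc2 was the most counted of the 10 genes, at rank 206 of all genes by total counts. It had 73, 67 and 56 counts in WT and 47, 48 and 72 in KO, or 363, 340.5 and 252 CPM against 283, 270.6 and 295 CPM. The KO libraries lay within the range of the WT libraries. For Trbc2 the means were 319 ± 58.6 and 283 ± 12.4 CPM (SD, n = 3). The log2 fold change was -0.17 (SE 0.26, 95% confidence interval -0.71 to 0.38). It ran from -0.31 without WT replicate 3 to -0.08 without WT replicate 1.

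Within the pair, Trbc1 took 32.4%, 36.8% and 46.7% of the counts in the WT replicates and 39.0%, 47.3% and 45.5% in the KO replicates, with Wilson intervals that spanned from 24.3% to 57.4% over the libraries. Trbc1 was under 50% in all 6 libraries. The mean share was 38.6% ± 7.30 in WT and 43.9% ± 4.36 in KO (SD, n = 3), and no difference was detected in an exact two-sided permutation test (p = 0.3), in which the smallest p that 3 against 3 can give is 0.1.

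**Figure D2:**
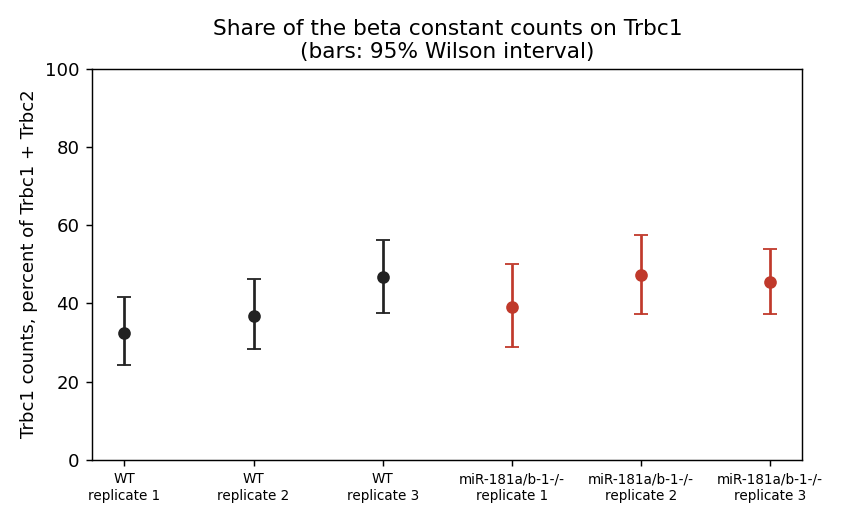
Share of the counts on Trbc1 plus Trbc2 that were on Trbc1 (percent, vertical axis) in each of the 6 libraries, with WT in black and miR-181a/b-1-/- in red and bars for the 95% Wilson interval, which covers counting error only. The intervals of all 6 libraries overlap, and the shares range from 32.4% in WT replicate 1 to 47.3% in KO replicate 2.

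The other gene segments of the TCR loci left few fragments. The 8 constant region genes had 937 counts in all, of which Trac, Trbc1 and Trbc2 held all but 14. Among 144 variable segments, 29 had a count and they summed to 80 counts, while 11 of 70 joining segments had 29 counts and 1 of 4 diversity segments had 1. None of the 223 segments other than the 3 members reached the minimum for the test. The most counted were Trbv12-1 with 13 counts, Traj12 with 10 and Trdc, the constant region of the delta chain, with 8. Traj12 had 0, 2 and 0 counts in WT and 2, 3 and 3 in KO, all at or under the 3 counts that a count of 0 allows.

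The CD3 chains are encoded side by side on chromosome 9, Cd3g at chr9:44969572-44980431 (minus strand), Cd3d at chr9:44981786-44987339 (plus strand) and Cd3e at chr9:44998740-45009627 (minus strand). In the receptor, CD3 epsilon pairs with CD3 delta and with CD3 gamma. Cd3d was the most counted of the 3, with 38, 41 and 54 counts in WT and 19, 37 and 56 in KO, or 189, 208 and 243 CPM against 115, 209 and 229.7 CPM. A single low library, KO replicate 1, set the KO group apart in its mean, and the other KO libraries lay within the WT range. For Cd3d the means were 214 ± 27.5 and 184 ± 61.3 CPM (SD, n = 3), and the log2 fold change was -0.20 (SE 0.30, 95% confidence interval -0.81 to 0.42). Without KO replicate 1 it was 0.03, and without KO replicate 3 it was -0.39.

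Cd3e had 30, 25 and 31 counts in WT and 20, 31 and 25 in KO, or 149, 127 and 139.7 CPM against 121, 175 and 103 CPM. The WT libraries lay inside the range of the KO libraries, which varied more. For Cd3e the means were 139 ± 11.2 and 133 ± 37.6 CPM (SD, n = 3). The log2 fold change was -0.08 (SE 0.30, 95% confidence interval -0.70 to 0.55). It was 0.10 without KO replicate 3 and -0.35 without KO replicate 2.

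Cd3g had 51, 23 and 35 counts in WT and 26, 25 and 35 in KO, or 254, 117 and 158 CPM against 157, 141 and 144 CPM. Here the WT libraries varied more, and the KO libraries lay within their range. For Cd3g the means were 176 ± 70.4 and 147 ± 8.50 CPM (SD, n = 3). The log2 fold change was -0.26 (SE 0.31, 95% confidence interval -0.91 to 0.38). Leaving out WT replicate 1, the highest library, turned it to 0.07, and without WT replicate 2 it was -0.48.

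Cd247, which encodes the zeta chain, lies at chr1:165788681-165877277 (plus strand) and was the least counted of the receptor chains. It had 10, 13 and 7 counts in WT and 15, 11 and 11 in KO, or 49.8, 66.1 and 31.5 CPM against 90.5, 62.0 and 45.1 CPM. The groups overlapped, with KO replicate 1 the highest of the 6. For Cd247 the means were 49.1 ± 17.3 and 65.9 ± 22.9 CPM (SD, n = 3), and the log2 fold change of 0.39 (SE 0.40, 95% confidence interval -0.43 to 1.21) had the widest interval of the 9. It was 0.10 without KO replicate 1 and 0.14 without WT replicate 3, and 0.65 without WT replicate 2 and 0.64 without KO replicate 3. Of its 5329 exonic bases, 3007 (56.4%) overlap exons of Pou2f1, a transcription factor gene on the opposite strand, which had 27 counts in all. The strand setting of the counting is not given in the sources used here, and without it fragments of Cd247 and Pou2f1 in that overlap cannot be told apart.

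Cd4 lies at chr6:124864692-124888221 (minus strand). It had 29, 25 and 31 counts in WT and 19, 18 and 27 in KO, or 144, 127 and 139.7 CPM against 115, 101 and 111 CPM. It was the only gene of the 10 whose groups did not overlap, with the 3 KO libraries below the 3 WT libraries, as were 67 of the 1391 genes tested (4.82%), while 45 (3.24%) had all KO libraries above. For Cd4 the means were 137 ± 8.97 and 109 ± 6.74 CPM (SD, n = 3). The log2 fold change was -0.33 (SE 0.29, 95% confidence interval -0.93 to 0.27), and the difference did not pass edgeR's test. On library size alone, without the TMM factor, the groups overlapped, with WT replicate 2 at 111 and KO replicate 1 at 113 CPM. On that scale the libraries of a group differed less than counting alone gives on average, with a chi-square of 0.285 per degree of freedom.

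Lck lies at chr4:129548344-129573641 (minus strand). It had 31, 25 and 37 counts in WT and 23, 25 and 14 in KO, or 154, 127 and 167 CPM against 139, 141 and 57.4 CPM. KO replicates 1 and 2 lay within the WT range, and KO replicate 3 was the lowest of the 6. For Lck the means were 149 ± 20.3 and 112 ± 47.6 CPM (SD, n = 3), and the log2 fold change of -0.46 (SE 0.33, 95% confidence interval -1.14 to 0.23) was the most negative of the 9. It was -0.09 without KO replicate 3 and -0.69 without KO replicate 2.

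Zap70 lies at chr1:36761798-36782818 (plus strand) and had the fewest counts of the 10 genes, with 6, 9 and 11 in WT and 2, 8 and 9 in KO, or 29.9, 45.7 and 49.6 CPM against 12.1, 45.1 and 36.9 CPM. With 45 counts in all it stayed under the minimum for the edgeR test. For Zap70 the means were 41.7 ± 10.4 and 31.4 ± 17.2 CPM (SD, n = 3) and the groups overlapped, and an exact two-sided permutation test gave p = 0.5, where 3 against 3 cannot go below 0.1. With the looser minimum of 5 counts in 3 libraries edgeR's test gave a log2 fold change of -0.37 (SE 0.48, adjusted p = 0.981), and with no minimum -0.39 (SE 0.49, adjusted p = 0.760). The 2 counts of KO replicate 1 lay under the 3 counts that a count of 0 allows.

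**Figure D3:**
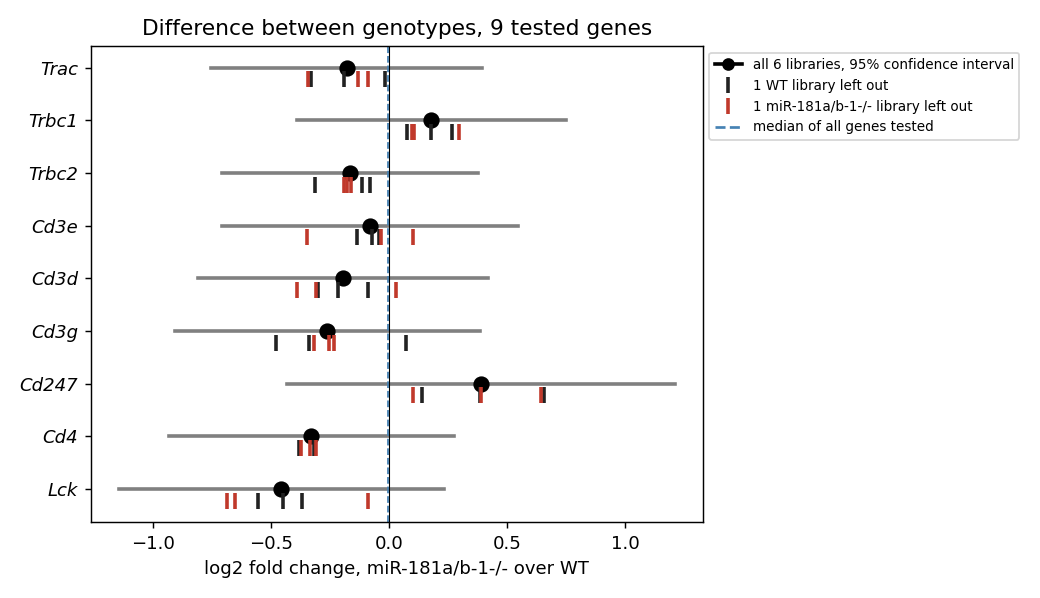
Log2 fold change of miR-181a/b-1-/- over WT (horizontal axis) for the 9 genes tested, with the 95% confidence interval as a line, ticks for the value with 1 library left out (black for a WT library, red for a KO library) and a dashed line at the median of all genes tested (-0.0040). All 9 intervals include 0, and for Cd3d, Cd3e and Cd3g the ticks fall on both sides of 0.

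By role, the constant regions took 0.0705% ± 0.0082 of the counts on genes in WT and 0.0667% ± 0.0073 in KO (SD, n = 3). The CD3 and zeta chains took 0.0519% ± 0.0063 and 0.0474% ± 0.0060, and these groups overlapped as well. Cd4, Lck and Zap70 together took 0.0263% to 0.0324% in the WT libraries and 0.0162% to 0.0261% in the KO libraries. All KO libraries lay below all WT libraries here, although the lowest WT library and the highest KO library, both replicate 2, were nearly equal. This sum of chosen genes was not tested. Within the fragments of the 10 genes, Trac held between 13.1% and 19.3% in every library and Zap70 between 0.803% and 3.07%.

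The spread between libraries of a group was near that of genes in general. Chi-square values within groups were taken on library size alone, so that differences the TMM factor removes are part of them. Over the 9 genes tested their median per degree of freedom was 1.74, against 1.62 over all genes tested, where 1 is counting noise alone. The value was highest for Lck at 3.77, Cd3g at 3.34 and Trac at 3.29, and under 1 for Cd4 and Trbc1, which was at 0.528. The intervals of the fold changes reached from 0.453-fold at the low end for Lck to 2.31-fold at the high end for Cd247. In data simulated for this comparison a set of 200 among 1391 genes was given a known change, and the test found 40% of them when the change was 2-fold and 94.5% when it was 4-fold. In that setting a 2-fold change was missed more often than it was found. The rate for a change in a single one of these genes, at its own counts, was not tested.

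Compared per kilobase of exon, the constant regions also had the highest level. Trbc2 stood at 435 CPM per kb (mean of 6 libraries, range 365 to 525), higher than Trbc1 in 6 of 6 libraries and with no overlap of their ranges. Trbc1 at 281 and Trac at 272 CPM per kb did not differ beyond their spread, and both stood apart from Cd3d at 109.6 CPM per kb. Cd3d was higher than Cd3g in 6 of 6 libraries, although their ranges over the libraries overlapped. Cd3g at 49.4, Lck at 44.7, Cd3e at 33.3 and Cd4 at 30.5 CPM per kb formed a run in which each overlapped the next. Cd4 was above Zap70 in 6 of 6 libraries, and Zap70 at 12.2 and Cd247 at 10.8 CPM per kb overlapped. The exonic length counts every exon of any annotated transcript. With the length of the longest coding transcript in its place, Cd3g came before Cd3d, Cd3e before Lck and Cd247 before Zap70, and the other places were the same. Because shared stretches of Trbc1 and Trbc2 may be missing from the counts, the levels of these genes per kb are uncertain. The level of Cd247 is uncertain too, since 56.4% of its exonic bases overlap exons of Pou2f1 and the strand setting is not given. Records ambiguous between genes made up 20.4% to 24.0% of a library, and how many came from this overlap was not tested.

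**Figure D4:**
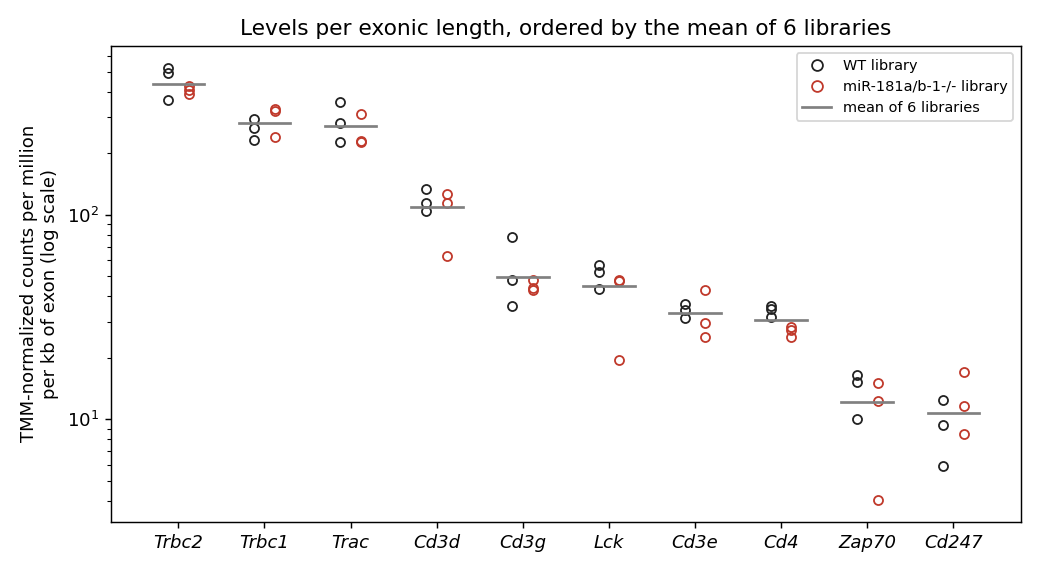
Level per exonic length (TMM-normalized CPM per kb of exon, vertical axis on a log scale) of the 10 genes in order of their mean over 6 libraries (grey line), with WT libraries in black and miR-181a/b-1-/- libraries in red. Trbc2, Trbc1 and Trac lie between 227 and 525 CPM per kb, and Zap70 and Cd247 between 4.03 and 16.97.

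Other genes of the TCR pathway gave no called gene in any list. Of 23 proximal signalling genes, which act with or just after Lck and Zap70, 13 were tested, and 8 had a positive and 5 a negative log2 fold change, and the median of the 13 was 0.03. None had an unadjusted p under 0.05. The most counted were Ptprc, the phosphatase CD45 that activates Lck, with a log2 fold change of -0.16 (SE 0.26), the adaptor Fyb with 0.11 (SE 0.26) and the adhesion receptor Cd2 with 0.09 (SE 0.28).

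Of 17 negative regulators, 6 were tested, with 4 positive and 2 negative log2 fold changes around a median of 0.16. Dgka and Dgkz, which encode kinases that remove diacylglycerol, had log2 fold changes of 0.18 (SE 0.33) and -0.46 (SE 0.41). Sla encodes the adaptor SLAP, which promotes the loss of TCR-CD3 complexes from developing thymocytes. It had 11, 8 and 10 counts in WT and 16, 16 and 17 in KO, all KO libraries being above the WT libraries in CPM. The log2 fold change was 0.84 (SE 0.35), with an unadjusted p under 0.05. In edgeR's test it had an adjusted p of 0.896, and it was not called.

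Of 28 distal signalling genes, 10 were tested, with 3 positive and 7 negative log2 fold changes around a median of -0.25. Rasgrp1 and Nfkb1 were among the most counted, with log2 fold changes of 0.09 (SE 0.33) and -0.40 (SE 0.30). Jun, a subunit of the transcription factor AP-1, had 14, 21 and 18 counts in WT and 7, 12 and 2 in KO, and its log2 fold change was -1.22 (SE 0.45). In edgeR's test its unadjusted p was under 0.05 and its adjusted p = 0.815. All KO libraries lay below all WT libraries in CPM for Jun, and it was not called. Against the background of 5.18% of genes with an unadjusted p under 0.05, the lists held 3 such genes of 29 tested.

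The marker genes of Treg cells served as a comparison from the same libraries. Of 11, 9 were tested, with 3 positive and 6 negative log2 fold changes, and their median of -0.23 was of the size of that of the TCR genes. Ikzf2, which encodes the transcription factor Helios, was the most counted, with a log2 fold change of 0.21 (SE 0.25), and the interleukin 2 receptor chains Il2rb and Il2ra had -0.23 (SE 0.28) and -0.35 (SE 0.28). Their summed level was 1568 to 1804 CPM in WT and 1488 to 1711 CPM in KO, and no marker was called.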

How the data were processed

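The 6 libraries, 3 of them WT and 3 miR-181a/b-1-/-, were prepared from Treg small RNA with the SMARTer smRNA-Seq kit. The authors deposited raw counts per gene, made with HTSeq from STAR alignments. Before alignment, reads had passed adapter trimming (Flexbar) and a filter against rRNA (Bowtie 2). The submitters' processing notes give the build GRCm38.p6. The annotation release, strand setting and overlap mode are not given in the sources used here. A further table of the authors with their own fold changes and p-values for miRNA features was not used. GENCODE vM21, on GRCm38, holds 51550 of the 54547 identifiers if versions must match and 53706 if they need not, and symbols, coordinates and transcript sequences were taken from there. Protein sequences were not analysed here. Samples were grouped by the genotype in the labels.

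Records given to no gene (75.7% to 80.3% of a library) were left out of library sizes. Genes that reached 10 counts in 3 or more of the 6 libraries (1391 genes, 88.3% to 90.4% of the counts on genes) were normalized by TMM over these genes and tested with edgeR 4.0.16 (glmQLFit, glmQLFTest, genotype only) in R 4.3.3, with Benjamini-Hochberg adjustment over all of them. The standard error is the absolute log2 fold change over the root of F. Single values were tested with an exact two-sided permutation test in SciPy 1.17.1, and shares of a library have 95% Wilson intervals. A count of 0 was taken to allow 3 counts. Exonic overlaps were taken on either strand. Shared stretches of 25 bases were searched in the annotated transcripts as written, without reverse complements.

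The members and the lists of other genes were chosen with earlier results of these data known. Named beside the 10 members are the 3 most counted genes of each list, genes of a list with an unadjusted p under 0.05, genes overlapping a member's exons, and Foxp3. Some genes that this rule takes are not reported here. Foxp3 and the markers named at 0 were named after their values were seen. As alternatives, the comparison was run with DESeq2 1.42.0, no TMM factor, protein-coding genes alone, 3 other filters, each library left out, the replicate number as a block and an unadjusted threshold. Normalization on protein-coding and TCR constant genes, or without the 20 most counted genes (53.9% to 56.1% of the counts on genes), was added after seeing the data.

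Replicate libraries differed by 2.62 to 7.26 times the degrees of freedom in a chi-square test over genes, more than counting noise. The script was checked on simulated counts drawn from the means and sizes of these libraries, with 200 changed genes among 1391. It made 2 false calls at 2-fold, 6 at 4-fold and 0 where nothing was changed.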

Additional observations from a re-analysis of the deposited data

How the results depend on the processing

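No TCR complex gene passed an adjusted or unadjusted p of 0.05 under any alternative that was run, and the lowest unadjusted p was 0.0792, for Lck without KO replicate 2. Leave-one-out values of the log2 fold change ran from -0.35 to 0.10 for Cd3e, from -0.39 to 0.030 for Cd3d and from -0.48 to 0.072 for Cd3g, which changed sign to 0.10 without KO replicate 3, to 0.030 without KO replicate 1 and to 0.072 without WT replicate 1. They ran from -0.69 to -0.09 for Lck, from -0.38 to -0.31 for Cd4, from -0.34 to -0.02 for Trac, from 0.07 to 0.29 for Trbc1, from -0.31 to -0.08 for Trbc2 and from 0.10 to 0.65 for Cd247, with no change of sign. The log2 ratio of the summed share of the 10 genes was -0.15, and from -0.24 to -0.05 over its alternatives. Cd247 could not be tested with at least 10 counts required in every library. Trac, Trbc1 and Trbc2, which are annotated as TCR constant genes, were not part of the test on protein-coding genes alone.

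Over all genes the main test called 0 lower and 0 higher, with 37 and 35 at an unadjusted p under 0.05, as edgeR gave them, and 11 and 13 with DESeq2, which also called 0. Higher calls numbered 5 on protein-coding genes alone, 4 with the TCR constant genes added to these, and 7, with 1 lower, without a filter. Leaving out a library gave 0 to 1 lower and 0 to 8 higher calls. The 8 came without KO replicate 1, while 2 came without KO replicate 2 and 3, with the 1 lower, without KO replicate 3. The cause was not tested.

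The replicate number is shared by the groups. The deviations of same-numbered samples correlated at 0.231, 0.0812 and 0.182, and every sample correlated best with its own number. These correlations were weak, and the main test did not pair the samples. Whether the numbers mark pairs was not settled. With the number as a replicate block in edgeR's test, 0 genes were called, and 40 lower and 48 higher had an unadjusted p under 0.05. The lowest adjusted p of a TCR complex gene in that test was 0.839, for Lck at -0.48. Each tested TCR complex gene had a smaller SE than in the main test, at 0.20 to 0.37 against 0.26 to 0.40. The 2 to 73 counts per gene and library limit what differences could be detected.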
